A study of Mus musculus with 18 samples.

Results

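The genes described here are 9 genes that tissue-resident macrophages of the fetus are known for, namely Timd4, Lyve1, Folr2, Mrc1, Cbr2, Fcna, C1qa, C1qb and C1qc. They are 9 of the 20275 genes of the deposited expression matrix, and all 9 are in it. They were taken by name and not by a cutoff on a measured value, but with earlier results of these data known. Counts of the members that pass a limit are therefore a description. They were followed through every cell cluster of the hematopoietic progenitor (HP) libraries, with both E16.5 libraries kept apart. HPs were sorted from bone marrow (BM) as lineage-negative, Kit-positive cells, which the study's methods also describe as CD45-positive, so that Kit, the receptor for stem cell factor, was required of every sorted cell. The mice were of strain C57B6/J, with no genetic change and no treatment named in the labels, and each library came from a pool of mice. HP libraries came from embryonic day 16.5 (E16.5, 2 libraries), E18.5, postnatal day 0 (P0) and adult BM, with 1 library at each of the last 3 stages, so a difference between stages mostly has no replicate check. Stromal cells, sorted as CD45-negative and Ter119-negative, gave 1 further library per stage.

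Tissue-resident macrophages settle in fetal organs before birth, clear dying cells and iron, and can maintain themselves without blood monocytes. Timd4 encodes a receptor for phosphatidylserine, the lipid that dying cells expose. Lyve1 is a receptor for the matrix sugar hyaluronan, Mrc1 (CD206) is the macrophage mannose receptor and Folr2 is a folate receptor, and all are classical surface markers of such macrophages. Cbr2 is a carbonyl reductase and Fcna, ficolin A, is a secreted lectin that can start the lectin pathway of complement. C1qa, C1qb and C1qc encode the chains of C1q, which starts the classical pathway and tags dying cells for uptake. C1q is also made at high levels by microglia, the resident macrophages of the brain, so that C1q alone does not tell kinds of macrophage apart.

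In GRCm38 (mm10), the genes for C1q lie side by side on the minus strand of chromosome 4, at chr4:136880126-136886200 (C1qb), chr4:136889801-136892936 (C1qc) and chr4:136895916-136898844 (C1qa). They span 18719 bases in which RefSeq places no other gene, with gaps of 3600 and 2979 bases between neighbours. The other genes are not neighbours. Timd4 is at chr11:46810786-46844333 and Cbr2 at chr11:120729485-120732025, Lyve1 at chr7:110850607-110862953 and Folr2 at chr7:101839988-101857190, and Mrc1 at chr2:14229414-14332023 and Fcna at chr2:25624665-25635440. Of the 9 genes, 7 had an entry in the RefSeq promoter table of GRCm38.p6 (8 entries, since Folr2 had 2). Lyve1 and C1qa had none. Each entry was searched, over the 250 bases before the transcript start it gives and on both strands, for GAGGAA, a core of sites for PU.1, the factor that all macrophages depend on, and for TGCTGA, the core of sites for MAF, a factor of resident macrophages. GAGGAA was in 5 of 8 entries against 23.2% of 32851 promoters in the table, and TGCTGA was in 5 of 8 against 16.1%. The windows of Fcna and of the second entry of Folr2 lie wholly inside the annotated gene, and those of Timd4, Cbr2 and C1qc reach 13, 4 and 22 bases into it. Fcna is among the 5 for both motifs, and the second entry of Folr2 among those for TGCTGA. A match of letters describes the sequence and not binding. The 3 windows below lie wholly before the annotated gene, 1 of a complement gene and 2 of surface receptors, and capitals mark the matches, TTCCTC being GAGGAA read on the other strand. They lie at chr4:136886201-136886450, minus strand (C1qb), at chr2:14229164-14229413, plus strand (Mrc1), and at chr7:101857191-101857440, minus strand (Folr2).
C1qb: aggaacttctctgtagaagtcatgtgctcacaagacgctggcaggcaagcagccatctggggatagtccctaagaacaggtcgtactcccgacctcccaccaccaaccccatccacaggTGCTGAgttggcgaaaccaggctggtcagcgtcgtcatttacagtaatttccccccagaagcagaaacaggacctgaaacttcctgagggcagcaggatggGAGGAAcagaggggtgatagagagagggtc
Mrc1: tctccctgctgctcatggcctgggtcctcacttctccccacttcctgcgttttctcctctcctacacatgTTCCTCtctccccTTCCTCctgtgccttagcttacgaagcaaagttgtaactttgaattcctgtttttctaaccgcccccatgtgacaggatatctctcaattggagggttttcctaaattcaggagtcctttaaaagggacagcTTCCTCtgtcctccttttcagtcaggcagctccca
Folr2: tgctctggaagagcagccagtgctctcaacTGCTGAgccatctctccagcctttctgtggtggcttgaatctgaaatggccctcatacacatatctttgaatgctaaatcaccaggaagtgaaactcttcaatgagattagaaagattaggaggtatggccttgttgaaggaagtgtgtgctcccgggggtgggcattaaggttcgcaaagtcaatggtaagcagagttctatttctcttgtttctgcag

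The 5 HP libraries held 20982 cells, from 560 (E16.5 HP 1) to 6208 (P0) per library, with median depths from 6747 UMIs per cell (adult) to 23292 (E16.5 HP 1). UMIs count single captured transcripts near their 3′ end and are not scaled to gene length, so levels are compared between clusters and not between genes. Levels are given as CPM, the UMIs of a gene per 1000000 UMIs of the summed cells, and the ranges in brackets are exact Poisson 95% intervals, which hold counting error only. Many cell barcodes occurred in more than 1 HP library. E16.5 HP 1 shared 330 of its barcodes with the adult library, 153 with P0 and 46 with E18.5, and 59.5% of its cells had a barcode also present elsewhere, against 0.442% in E16.5 HP 2, 11.1% of E18.5 HPs, 3.87% of P0 HPs and 11.8% of adult HPs. In all 330 barcodes shared with the adult and all 153 shared with P0, the cell in E16.5 HP 1 was the deeper of the pair. Whether the RNA under a shared barcode came from the labelled stage was not tested, so levels that rest on shared cells may not belong to that stage, and they are given with and without them.

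The summed level of the 9 genes was highest in E16.5 HP 1 and lowest in adult HPs. It was 2074 CPM (2051 to 2098) in E16.5 HP 1, 216.0 (213.1 to 219.0) in E16.5 HP 2, 851.7 (844.6 to 858.9) in E18.5 HPs, 193.8 (191.4 to 196.3) in P0 HPs and 21.75 (20.58 to 22.98) in adult HPs. The libraries of the same stage thus differed by 9.60-fold, more than E18.5 differed from either of them, and P0 lay just under the lower E16.5 library. Without any cell that shared a barcode, the sums were 3336, 212.8, 1110, 192.9 and 12.55 CPM in the same order, and the fold between the E16.5 libraries was 15.7. For each gene the adult library was the lowest of the 5. Fcna did not follow the order at the top, at 52.68 CPM (50.92 to 54.47) in E18.5 HPs and 47.59 (44.04 to 51.34) in E16.5 HP 1, but these intervals overlapped. Without cells that share a barcode, Fcna was 70.01 CPM in E16.5 HP 1. In E18.5 HPs such cells held 1.05% of the Fcna UMIs and 25.4% of all UMIs, so its level there also rises without them. Lyve1 ran at 126.6, 13.76, 48.79, 4.54 and 0.625 CPM from E16.5 HP 1 to the adult, and at 0.0683 CPM (4 UMIs) in adult cells with no shared barcode. Mrc1 ran at 189.0, 19.12, 45.47, 7.24 and 2.42 CPM, and C1qb at 676.7, 68.48, 268.9, 70.23 and 6.49 CPM. P0 was the second lowest for the receptors and Fcna, but for C1qa and C1qb it was 60.91 and 70.23 CPM against 57.58 and 68.48 in E16.5 HP 2, where the intervals of C1qb overlapped.

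**Figure D1:**
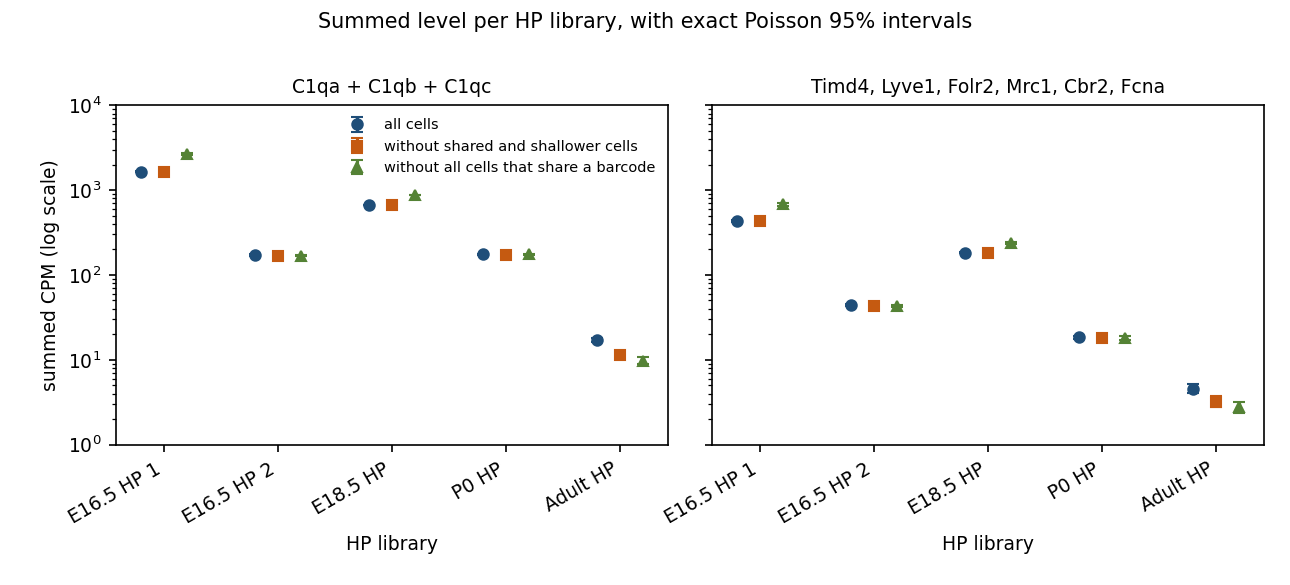
Summed level in CPM (log scale) of the 3 genes for C1q (left) and the other 6 genes (right) in each HP library, with exact Poisson 95% intervals. Circles show all cells, squares leave out a cell when the same barcode was deeper in another library, and triangles leave out every cell that shares a barcode. E16.5 HP 1 is the highest and the adult the lowest in both panels, and the 6 other genes drop from 44.4 CPM in E16.5 HP 2 to 18.4 at P0 while the sum for C1q is 171.7 and 175.5.

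The share of cells with C1q transcripts followed the same order of libraries at the top and bottom. After each cell was thinned to 1000 UMIs, which makes libraries of different depth comparable and left out shallower cells (16, 19, 957, 257 and 1017 cells from E16.5 HP 1 to the adult), C1q was found in 27.8% of cells in E16.5 HP 1 (exact Clopper-Pearson 95% interval 24 to 31.7), 3.36% in E16.5 HP 2 (2.86 to 3.91), 14.2% of E18.5 HPs (12.8 to 15.6), 4.82% of P0 HPs (4.29 to 5.40) and 1.15% of adult HPs (0.870 to 1.48). The unthinned shares were 35.9, 6.86, 26.6, 12.2 and 3.88%. Without cells that share a barcode, the thinned adult share was 0.554% (0.365 to 0.805).

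Counts were summed per library and stages were compared with E16.5 in edgeR's quasi-likelihood test, in which the E16.5 pair alone gives the spread and the lone libraries are assumed to vary like it. No member passed an adjusted p of 0.05 in any of the 3 comparisons. Among 16114 genes tested, the share called higher and lower was 0.00621% and 0% for E18.5, 0.168% and 0.124% for P0, and 1.35% and 0.993% for adult HPs. At an unadjusted p under 0.05, 0 of 9 members passed for E18.5, 5 for P0 and 9 for adult HPs, where 6.50%, 8.49% and 15.3% of all genes passed in either direction. DESeq2 called 0, 5 and 9 members, all lower, and called 1.64%, 2.49% and 4.92% of the genes it tested lower. The median log2 fold change of the members was −0.35 for E18.5, −3.09 for P0 and −5.62 for adult HPs, where the medians over all genes were −0.0040, 0.019 and 0.0059. In the adult comparison, Folr2 had the most negative log2 fold change in edgeR (−7.52 ± 1.75 SE, adjusted p = 0.0919, n = 1 against 2) and Fcna the least negative (−4.25 ± 1.32 SE, adjusted p = 0.188). Without cells that share a barcode, edgeR called 0, 4 and 9 members, all lower, where 0.505%, 1.32% and 3.14% of genes were called lower. The members' medians were then −0.57, −3.52 and −7.05, and the most negative value for adult HPs was that of Lyve1 (−10.12), with 4 UMIs left in the adult library. Leaving out all cells with a shared barcode took away 78.7% of the UMIs of E16.5 HP 1. With only the shallower cells of shared barcodes left out, edgeR called no member, and the medians were −0.37, −3.12 and −6.26. Without cells under 1000 UMIs the median for adult HPs was −6.41. All 3 medians depended on which E16.5 library was kept. Without E16.5 HP 1 they were 1.84, −0.86 (8 of 9 members negative) and −3.24, and without E16.5 HP 2 they were −1.22, −3.99 and −6.53, so the sign turned for E18.5 and the size moved for P0 and adult HPs. In bulk sums of this kind, fewer cells of a type and less RNA per cell cannot be told apart, so the clusters are described next.

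Most UMIs of the 9 genes lay in few clusters, named here by the deposited codes. The clusters were made from expression that included these genes, so their levels are a description without a test. Of all UMIs of the 9 genes, the code Mono/Mast held 96.4% in E16.5 HP 1 and 92.2% in E16.5 HP 2. At E18.5, 4 codes shared them, with 26.6% in Mono1ii, 23.2% in Mono1iv, 20.7% in Mono2 and 20.3% in Mono1i. At P0, Mono2 held 45.2% and Mono1 42.7%, and in the adult a code named for mast cells, Mast4ii, held 56.1%. Outside the codes with at least 1000 CPM in sum, the median summed level over codes of at least 20 cells was 49.3, 11.1, 34.0, 12.4 and 4.42 CPM from E16.5 HP 1 to the adult.

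**Figure D2:**
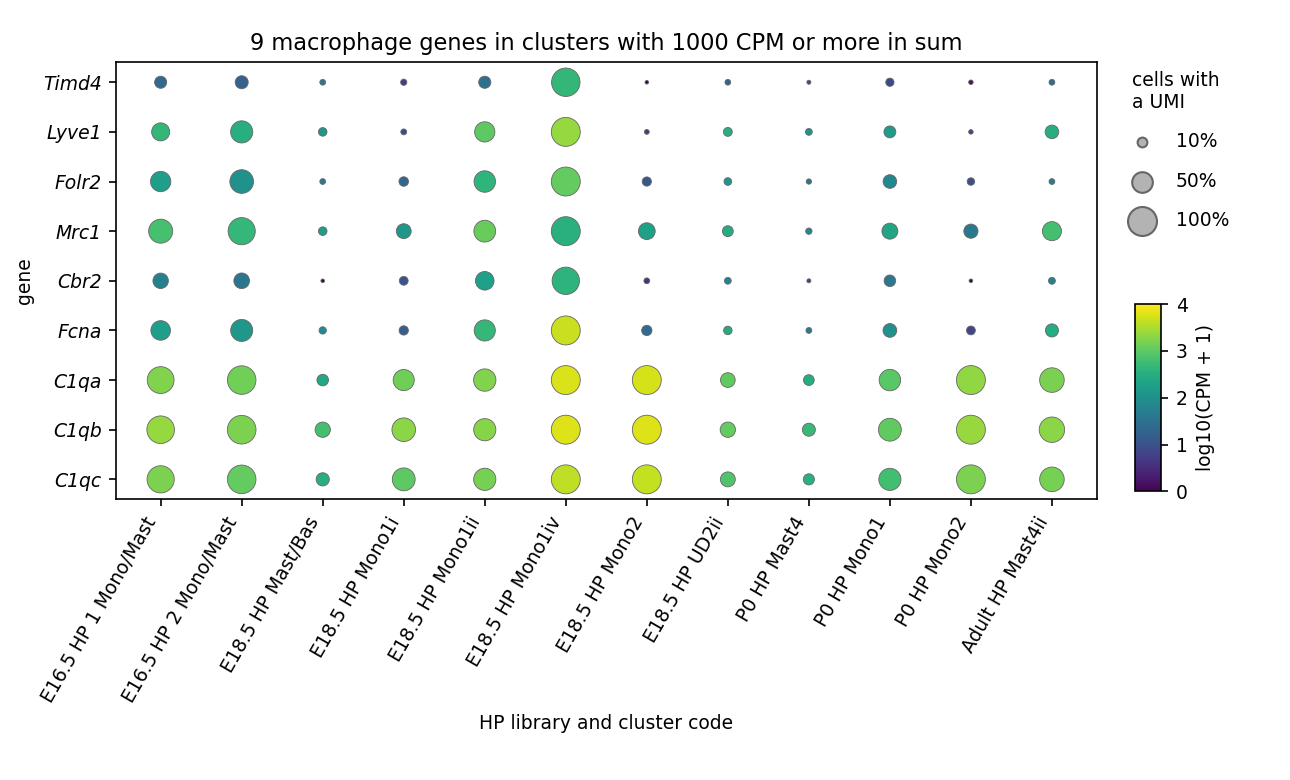
Level of each of the 9 genes, as log10 of CPM + 1 (colour), and share of cells with a UMI (point area), in the 12 HP clusters with a summed level of at least 1000 CPM. The 3 bottom rows (C1q) are bright in nearly every column, while the 6 upper rows are bright together only in E18.5 Mono1iv. E18.5 Mono1ii is next, then E16.5 Mono/Mast, adult Mast4ii and E18.5 UD2ii. In these rows both Mono2 columns are dark, and E18.5 Mono1i is close to them.

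E18.5 Mono1iv, a cluster of 28 cells with no shared barcode, had the highest summed level of all, 25196 CPM (24762 to 25636), and was the top cluster for 7 of the 9 genes, C1qb included. Timd4 reached 451.8 CPM there (395.3 to 514.1) and was found in 27 of 28 cells. E18.5 Mast/Bas came next at 40.33 CPM, but from 1 UMI, with an interval of 1.021 to 224.7 that covers the levels of the clusters after it. These were E18.5 Mono1ii at 28.78 CPM (21.43 to 37.85), adult Mast4ii at 26.54 (5.47 to 77.57, 3 UMIs) and Mono/Mast of E16.5 HP 1 at 22 (17.57 to 27.20) and of E16.5 HP 2 at 15.93 (12.12 to 20.54), with E18.5 UD2ii at 18.70 (6.86 to 40.70, 6 UMIs) between the last pair, and the intervals overlap from each to the next.

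Fcna was 4685 CPM (4498 to 4876) in Mono1iv and 463.4 (432.2 to 496.2) in Mono1ii, the next in order when all cells of a cluster are counted. The adult Mast4ii cells with no shared barcode, described further on, had a higher value than Mono1ii, with overlapping intervals. Lyve1 was 2306 CPM (2176 to 2442) in Mono1iv, 1018 (971.7 to 1066) in Mono1ii, 449.1 (428.2 to 470.7) in Mono/Mast of E16.5 HP 1 and 337.1 (318.7 to 356.4) in that of E16.5 HP 2, with no overlap down to there. In the 34 cells of the last with no T cell marker UMI, described further on, Lyve1 was 944.8 CPM and Mrc1 1085. Folr2 and Cbr2 had the same leading pair, with 1104 and 390.9 CPM in Mono1iv and 393.4 and 180.6 in Mono1ii. Mrc1 did not follow this order. It was highest in Mono1ii, at 1158 CPM (1109 to 1209), then in Mono/Mast of E16.5 HP 1 (659.5, 634.1 to 685.6). Adult Mast4ii overlapped the latter, at 645.8 CPM (506.2 to 812.0, 73 UMIs), and Mono/Mast of E16.5 HP 2 had 453.2 (431.8 to 475.4). In Mono1iv Mrc1 was 343.7 CPM (294.7 to 398.6), although every Mono1iv cell held a UMI of it.

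C1q separated from the other genes in the clusters named Mono2, and nearly as far in E18.5 Mono1i. C1qa, C1qb and C1qc were 5548, 6042 and 4418 CPM in E18.5 Mono2, close to Mono1iv (5843, 6140 and 3932). The intervals of C1qa and C1qb overlapped between both clusters, and C1qc was higher in Mono2. Against this, Timd4 had 0 UMIs in 80 Mono2 cells, which allows up to 5.25 CPM (upper 95% bound), Lyve1 had 4.27 CPM, Folr2 11.4, Cbr2 2.85 and Fcna 22.8. Mrc1 was the exception, at 186.5 CPM (155.9 to 221.3) with a UMI in 32.5% of E18.5 Mono2 cells, against 43.93 CPM in the rest of the library. C1q made up 98.6% of the UMIs of the 9 genes in E18.5 Mono2 and 99.0% in P0 Mono2, against 63.2% in Mono1iv, 60.9% in Mono1ii, and 79.0 and 79.2% in Mono/Mast of the E16.5 libraries. E18.5 Mono1i lay near Mono2, at 95.7%, though its levels of C1qa, C1qb and C1qc were lower (1319, 1993 and 1004 CPM). There Timd4 was 4.42 CPM, Lyve1 7.24, Folr2 20.1, Cbr2 9.25, Fcna 14.9 and Mrc1 136.7. P0 Mono2 had 2143, 2432 and 1628 CPM of C1qa, C1qb and C1qc, with Timd4 at 0.560 (1 UMI), Cbr2 at 0 and Mrc1 at 39.23.

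The Mono2 clusters also held the microglia list, of which 10 of 10 tested genes were at least 8-fold over the rest of the library at E18.5 and at P0. P2ry12, a purine receptor typical of microglia, was 883.9 and 271.8 CPM there, and Sall1, a transcription factor of microglia, 165.1 and 35.86. P0 Mono2 also held RNA of other cell types, with the stem and progenitor marker Hlf at 52.12 CPM and the erythroid marker Car2 at 194.5. In the rest of the P0 library they were 36.50 and 234.5 CPM, and in P0 Mono1 28.74 and 125.2. In E18.5 Mono2 these were 1.42 and 2.85 CPM. The part of this RNA in the lower levels at P0 was not tested. In Mono1iv, P2ry12 was 17.68 CPM and Sall1 0, and 0 of 10 tested genes of the list were at least 8-fold up. Sall1, P2ry12 and Olfml3 were among the 10 leading genes of both Mono2 clusters, so the code's name as a monocyte does not match its leading genes. How cells with this profile came to be in a BM sort was not tested.

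By the measure of at least 8-fold over the rest of the library, 9 of 9 members were called in Mono/Mast of E16.5 HP 1, where 2.45% of genes tested were, and 9 of 9 in that of E16.5 HP 2 (1.73%). At E18.5 it was 8 of 9 in Mono1iv (2.54%), 8 of 9 in Mono1ii (2.33%), 3 of 9 in Mono2 (3.49%) and 1 of 9 in Mono1i (2.13%). At P0 it was 8 of 8 tested in Mono1 (2.48%) and 3 of 8 in Mono2 (1.75%), and in adult Mast4ii 5 of 5 tested (3.08%). The 3 called in each Mono2 cluster were C1qa, C1qb and C1qc. A gene was tested when it had 50 UMIs over the cluster and the rest together, so a member could enter through the cluster in which it was high. The rest held under 50 UMIs of 5 members in E16.5 HP 1 (85 of its 86 UMIs of Timd4 and 204 of its 207 of Cbr2 were in Mono/Mast), of 4 in E16.5 HP 2, of 2 in P0 Mono1 and of 1 in adult Mast4ii. Genes of the marker lists counted by this measure, above and below, could enter in the same way. Sall1, for example, had 116 UMIs in E18.5 Mono2 and 0.265 CPM in the rest. The counts of members and of lists are a description only.

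Single cells held either few or most of the 9 genes in some clusters. In E18.5 Mono1ii, 55 of 129 cells held UMIs of 0 to 2 genes, 4 cells of 3 to 5 and 70 cells of 6 to 9. In Mono1iv all 28 cells held 8 or 9. Cells of P0 Mono1 fell into 109, 75 and 41, those of E18.5 Mono1i into 86, 94 and 11, those of Mono/Mast in E16.5 HP 1 into 24, 67 and 70, and those of Mono/Mast in E16.5 HP 2 into 4, 44 and 94. Over whole libraries, cells with 6 to 9 genes were 75 of 560 (13.4%), 102 of 4752 (2.15%), 124 of 3477 (3.57%), 48 of 6208 (0.773%) and 6 of 5985 (0.100%) from E16.5 HP 1 to the adult. Without cells that share a barcode they were 29 of 227, 100 of 4731, 120 of 3090, 45 of 5968 and 1 of 5277 (0.0190%). Thinned to 2000 UMIs, they were 29 of 538, 22 of 4717, 81 of 2471, 28 of 5899 and 0 of 4487 cells, the last allowing up to 0.0822%. These classes are ranges of a count and not cell types, and 24 cells with 5 genes and 22 with 6 sat next to the limit at E18.5.

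**Figure D3:**
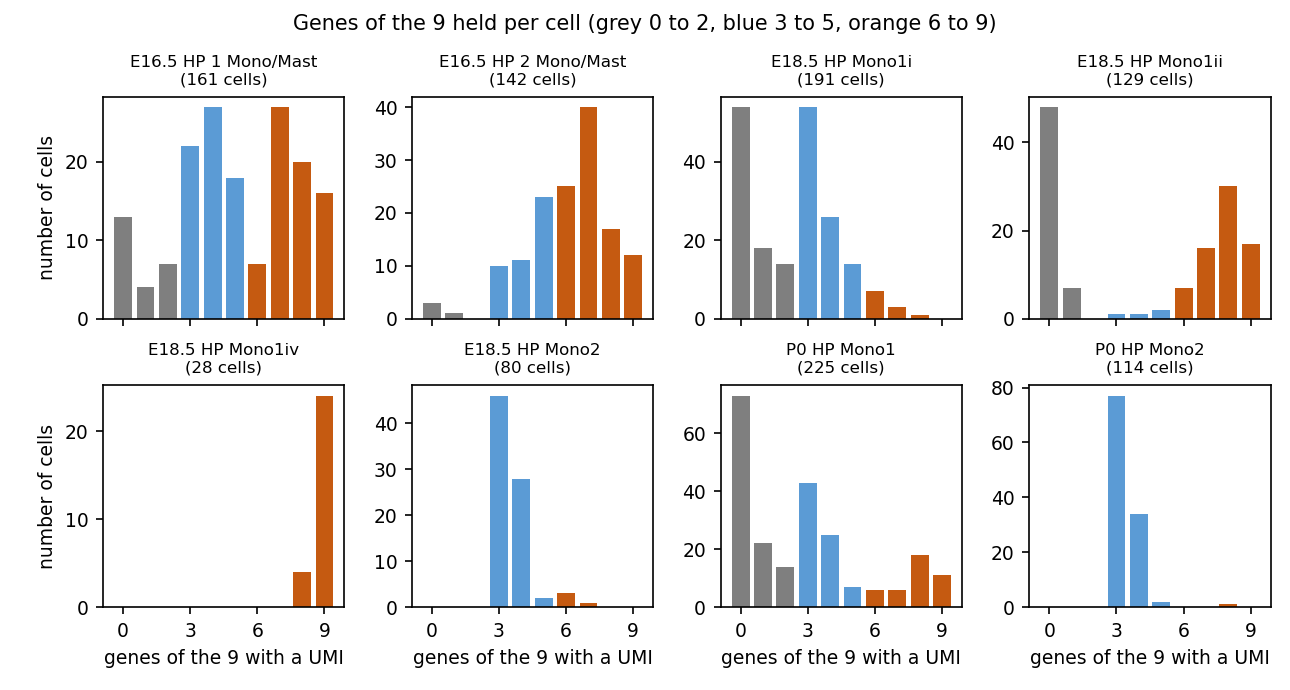
Number of cells (vertical axis, its own range in each panel) by how many of the 9 genes had a UMI (horizontal axis, 0 to 9) in 8 clusters, at the cells' own depth. E18.5 Mono1ii has cells at both ends and 4 between, all 28 cells of Mono1iv stand at 8 or 9, and both Mono2 panels peak at 3.

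The cells on either side of this split differed in genes outside the 9. In E18.5 Mono1ii, the 70 cells with 6 to 9 genes had 754.8 CPM of Csf1r, the receptor for the main macrophage growth factor, 1811 of the transcription factor Maf and 1136 of the scavenger receptor Stab1. The 55 cells with 0 to 2 genes had 19.92, 2.66 and 0 CPM. The order was the opposite for genes of dendritic cells, with H2-Aa, a chain of MHC class II, at 46.84 CPM in the first and 6502 in the second, and Clec9a, a receptor of cross-presenting dendritic cells, at 0 and 204.5 CPM. In that cluster 57 of 57 cells without Mrc1 held H2-Aa, as against 5 of 72 cells with Mrc1. So 1 deposited code held cells with both profiles, and its pooled levels mix them. The 9 genes summed to 15390 CPM in the 70 cells against 8293 in the cluster. These cells were chosen by how many of the same genes they held, so a higher sum is built into the choice.

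At P0, Mono1 had 1435 CPM of Ctsk, the protease with which osteoclasts digest bone collagen, in its 109 cells with 0 to 2 genes, and 64.44 and 65.85 in the others. Ctsk, Atp6v0d2, Mmp9 and Dcstamp, all of the osteoclast list, were among its 10 leading genes beside Lyve1, Cbr2, Fcna and Folr2. Maf ran at 51.59, 243.6 and 677.3 CPM over the 3 classes and H2-Aa at 235.0, 122.6 and 0. In E18.5 Mono1i, where C1q made up 95.7% of the UMIs of the 9 genes, H2-Aa ran at 1956, 651.8 and 438.8 CPM.

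**Figure D4:**
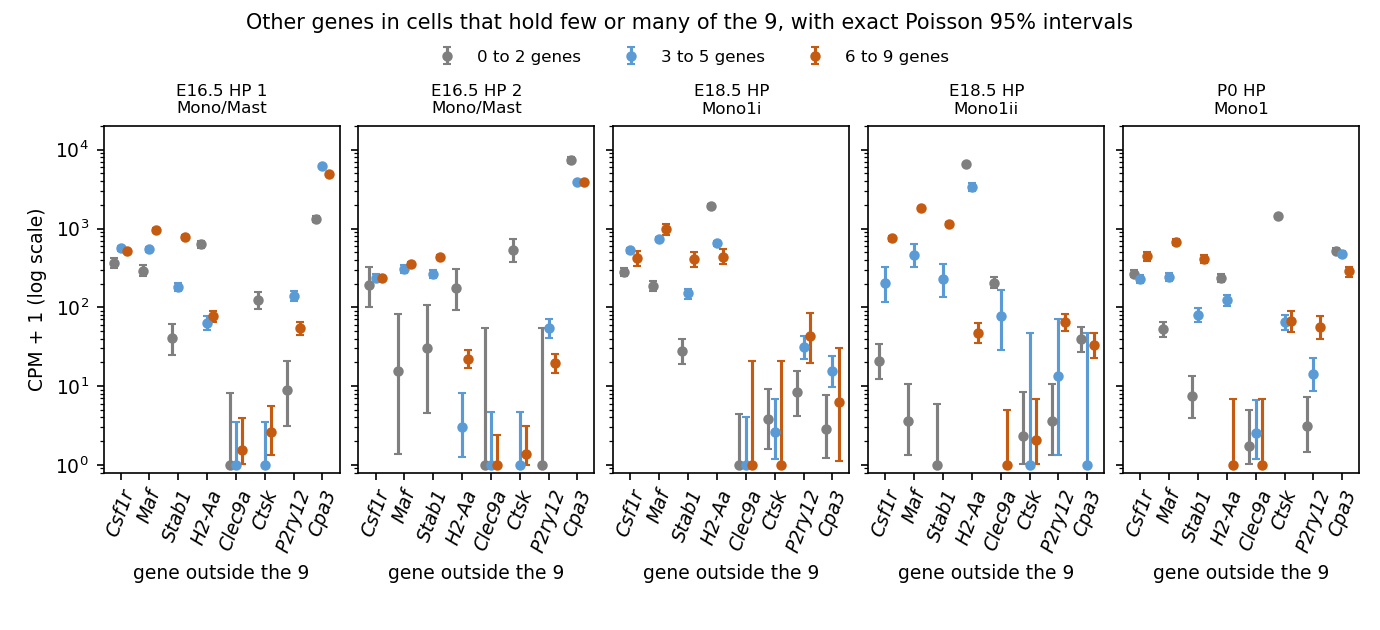
Level of 8 genes outside the 9, as CPM + 1 on a log scale with exact Poisson 95% intervals, in cells of 5 clusters that hold 0 to 2 (grey), 3 to 5 (blue) or 6 to 9 (orange) of the 9 genes. Maf and Stab1 are higher in orange than in grey in all 5 panels, H2-Aa is lower in orange than in grey in all 5, Clec9a is high only in the grey cells of Mono1ii and, in 4 cells, in its blue ones, and Ctsk is highest in the grey cells of P0 Mono1.

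Most cells with Timd4 also held Lyve1 in the 3 clusters compared, while most cells with Lyve1 held no Timd4. E18.5 Mono1iv was not among these, and there 27 of 28 cells held Timd4 and all 28 held Lyve1. Of the 21 Mono1ii cells with Timd4, 21 held Lyve1 and 21 held Fcna, as against 41 and 47 of the 108 cells without Timd4. In Mono/Mast of E16.5 HP 1, 24 of 26 cells with Timd4 held Lyve1, as against 37 of 135 without, and in that of E16.5 HP 2 24 of 27, as against 58 of 115. All 35 P0 Mono1 cells with Lyve1 held both Mrc1 and Folr2. Deeper cells hold more genes of any kind, so these shares were not tested.

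The pair of E16.5 Mono/Mast clusters differed less from each other than their libraries did. Their summed levels were 7229 CPM (7144 to 7314, 161 cells) and 5152 (5079 to 5226, 142 cells), and the ratio of E16.5 HP 1 to E16.5 HP 2 was between 1.28 (C1qa) and 1.65 (Folr2) for each gene. All 9 genes were at least 1.2-fold higher in E16.5 HP 1, where 33.8% of 9019 genes were, and the median ratio of all these genes was 0.996. In whole libraries each gene was between 8.74-fold and 11.4-fold higher, past 4-fold for 9 of 9 members and for 3.21% of 12871 genes. Mono/Mast made up 28.8% of the cells of E16.5 HP 1 and 2.99% of those of E16.5 HP 2. In E16.5 HP 1, 88 of the 161 cells shared a barcode, and the level was 6096 CPM in these and 11119 in the other 73.

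The order of the pair turned when cells with T cell RNA were left out. The 7 T cell markers, among them Cd3g, a chain of the T cell receptor complex, summed to 4224 CPM in Mono/Mast of E16.5 HP 2 and to 3.11 in that of E16.5 HP 1. Cd3g alone was 1451 CPM in the former and 1327 in the rest of that library, which holds many T cells. In E16.5 HP 2, 108 of the 142 cells held a UMI of these markers. They had a median of 32291 UMIs, 4501 CPM of the 9 genes and 200.5 of Csf1r. The 34 others had a median of 8670 UMIs, 11243 CPM of the 9 genes (10898 to 11596) and 522.7 of Csf1r. In E16.5 HP 1, the 156 cells with no T cell marker had a median of 20416 UMIs and 7361 CPM (7274 to 7450). So without the cells with T cell RNA each of the 9 genes was higher in E16.5 HP 2, 1.53-fold in sum, with overlapping intervals for 2 of them, Timd4 and Folr2. The cells kept were shallower in E16.5 HP 2. Without cells that hold Cpa3, described below, E16.5 HP 1 stayed the higher in sum. The part of T cell RNA in the levels of E16.5 HP 2 was not tested further.

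The monocyte list also differed between the pair. Of its 8 genes, 2 of 5 tested were at least 8-fold over the rest of the library in Mono/Mast of E16.5 HP 1 and 2 of 7 in that of E16.5 HP 2, and the list summed to 1595 and 1226 CPM. Ccr2, the chemokine receptor of classical monocytes, was 292.7 CPM (275.9 to 310.3) in E16.5 HP 1 and 37.25 (31.29 to 44.01) in E16.5 HP 2. Ms4a6c was 614.5 and 218.9 CPM and S100a4 378.4 and 182.2, whereas Plac8 was 254.9 and 761.5. At E18.5 the list summed to 4696 CPM in Mono1i, with Ccr2 at 554.6, to 3302 in Mono1iv, with Ccr2 at 80.53, and to 223.5 in Mono2. Fn1 alone was 1846 CPM in Mono1iv, where Ly6c2 was 7.86 against 35.42 in the rest of the library. Plac8 was 1817 CPM in Mono1i, against 1495 in the rest. Whether this bears on the levels of the 9 genes was not tested.

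Both Mono/Mast clusters held mast cell RNA beside macrophage RNA, which touches every level given for them. Cpa3, the mast cell carboxypeptidase, was 4933 and 3985 CPM in them, against 17758 and 21601 in Mast1 of the same libraries, where the 9 genes were at 11.1 and 9.80 CPM. In E16.5 HP 1, 79 of 161 cells held no Cpa3 UMI. These had a median of 16110 UMIs, 10672 CPM of the 9 genes in sum, 809.6 of Csf1r and 0 UMIs of Kit, which allows up to 2.81 CPM. The 82 cells with Cpa3 had a median of 30933 UMIs, 5459 CPM of the 9 genes, 363.3 of Csf1r and 289.2 of Kit. In E16.5 HP 2, 38 cells had no Cpa3, with 9972 UMIs in the median, 8827 CPM of the 9 genes and 9.86 CPM of Kit, and the 104 others had 32291 UMIs, 4569 CPM and 139 CPM of Kit. So in both libraries the cells with Cpa3 were deeper and lower in the 9 genes. Of the mast cell list, 9 genes were found and 0 of 9 tested were at least 8-fold over the rest of the library in either, where other mast cell clusters make up part of the rest. Whether cells with both profiles were single cells was not tested.

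Most other macrophage genes were also higher in Mono/Mast than in the rest of the library. Of 19 further genes of resident macrophages, 18 were in the matrix, and 14 of the 14 tested were at least 8-fold up in each E16.5 Mono/Mast cluster, among them Csf1r (514.8 and 231.6 CPM), Stab1 (451.7 and 382.2), Trem2 (338.8 and 217.8) and Pf4 (1987 and 1166). Marco and Clec4f, markers of macrophages of the spleen and liver, had 0 UMIs in both. In E18.5 Mono1iv it was 12 of 16, with Marco at 55 CPM, Cd163 at 298.6 and Apoe, a lipid carrier, at 29845. F13a1 was 1589 CPM in Mono1iv and 48.39 in Mono2, whereas Lgmn, a lysosomal protease, was 386.9 and 3146. So Mono1iv and Mono2, with nearly the same C1q, differed in opposite directions among these genes.

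Genes for taking up dying cells, the process that Timd4 and C1q serve, were at least 8-fold up for 6 of 8 tested in Mono/Mast of E16.5 HP 1 and 4 of 10 in that of E16.5 HP 2, and for 4 of 8 in Mono1iv and 5 of 8 in Mono2. Mertk, a receptor tyrosine kinase for bound dying cells, was 47.63 and 16.47 CPM in the E16.5 clusters, 102.1 in Mono1iv and 280.4 in Mono2. Its ligand Gas6 was 185.8, 148.2, 64.82 and 222.0 CPM. Of other complement genes, 3 of 7 and 3 of 8 tested passed 8-fold in the E16.5 clusters, among them C3ar1 (249.5 and 121.5 CPM) and C5ar1 (145.2 and 60.73), the receptors for complement fragments, and 5 of 9 did in Mono1iv, where Cfp, properdin, was 809.2 CPM against 1.42 in Mono2. C1s1, the protease that works with C1q, had 0 UMIs in all 4 clusters, and C1ra had 6 UMIs at most. Of 6 genes of macrophages that serve erythroblasts, 2 of 4 tested passed 8-fold in Mono/Mast of E16.5 HP 1, 3 of 5 in that of E16.5 HP 2, 3 of 6 in E18.5 Mono1i and 1 of 6 in Mono1iv. Slc40a1, the iron exporter, was 53.06, 38.87, 64.35 and 23.57 CPM in these. Hmox1, which breaks down heme, was 209.7 CPM in Mono/Mast of E16.5 HP 1 and 231.8 in Mono1iv, but Vcam1 was 5.69 and 0 and Spic 2.33 and 2.0. E18.5 Mono1i held Hmox1 at 218.8 CPM, Vcam1 at 36.60 and Spic, a transcription factor of macrophages that recycle iron, at 66.36. Spic was among its 10 leading genes, which Cd209a, of the dendritic cell list, led by fold. Epor, also of the erythroblast list, went the other way in Mono1i, at 1.21 CPM against 9.01 in the rest of the library.

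In the stage test, none of the 18 further macrophage genes tested was called in edgeR, with median log2 fold changes of −0.36, −2.01 and −2.57 from E18.5 to the adult. Of the 11 uptake genes tested, 0, 0 and 1 were called, the last lower, and their medians were −0.86, −2.06 and −2.64. Of the 14 complement genes tested, 0, 0 and 2 were called, both higher in the adult, and the medians were 0.43, 0.22 and 0.94. At an unadjusted p under 0.05 there were 1, 3 and 9 of the macrophage genes, 2, 4 and 4 of the uptake genes and 2, 1 and 6 of the complement genes, against the same 6.50%, 8.49% and 15.3% of all genes. Other cell types moved between the same libraries. In the adult comparison 6 of 9 mast cell genes were called lower, where 0.993% of all genes were. Called higher were 8 of 8 neutrophil, 5 of 7 erythroid and 3 of 8 monocyte genes, where 1.35% of all genes were. The T cell genes, none of them called, had a median log2 fold change of −6.32. The part of these cell types in the levels of the 9 genes, which are shares of all UMIs, was not tested.

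The adult cluster Mast4ii is given apart because most of its cells had a barcode of another library. It had 120 cells with a median of 798 UMIs, of which 97 shared a barcode, 74 with E16.5 HP 1 and 70 with P0. In E16.5 HP 1, 70 of the 74 were Mono/Mast cells. All 74 were deeper there, with a median of 34662 UMIs against 746 in the adult, and the adult cell had a median of 2.08% of the UMIs of its partner (10th to 90th percentile 2.0 to 2.31). The log10 depths of both cells had a Pearson r of 0.889 over these 74 barcodes, which is a description only. Of the 70 barcodes shared with P0, the adult cell was deeper in all 70, at a median of 147% of the UMIs.

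The 9 genes summed to 6396 CPM in Mast4ii, with Cma1, a mast cell protease, at 10962 CPM and Kit at 256.6. In the 97 shared cells the sum was 6121 CPM (5615 to 6660) and in the 23 others 7367 (6341 to 8512). The mixture of genes was not the same in both. Lyve1 was 374.8 CPM (258.0 to 526.3) in the shared cells and 80.08 (9.70 to 289.3, 2 UMIs) in the others, while Fcna was 147.6 (78.61 to 252.5) and 800.8 (489.1 to 1237). Of all adult UMIs of the 9 genes, 42.9% were in shared cells, which held 1.1% of the library's UMIs. Of 37 adult UMIs of Lyve1, 33 were in shared Mast4ii cells. P0 Mast4 also held mostly shared cells, 208 of 274, but there the sum was 1901 CPM in these and 179.7 in the other 66. E18.5 Mast/Bas had 1654 CPM, and 40 of its 41 cells shared a barcode. Why the barcodes are shared was not tested.

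**Figure D5:**
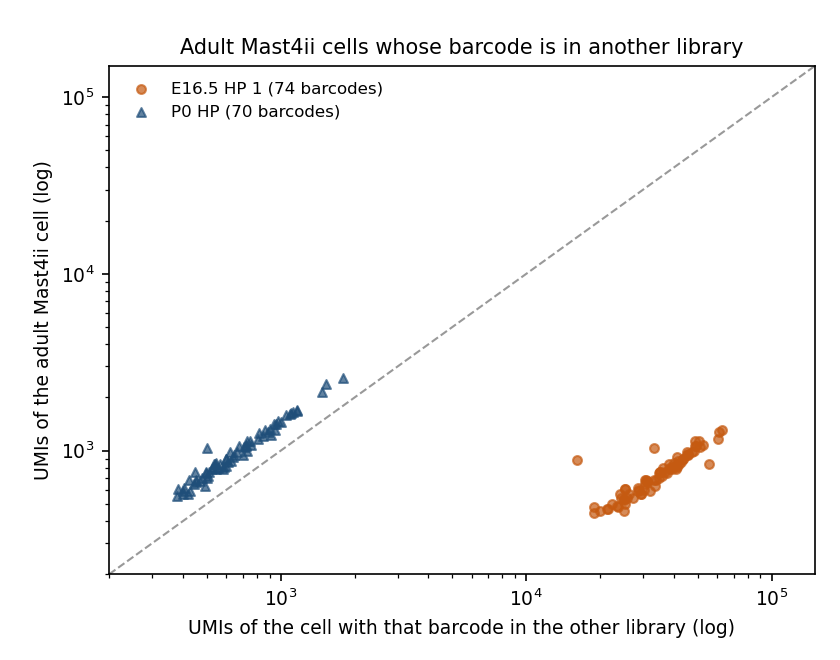
UMIs of adult Mast4ii cells (vertical axis, log scale) against UMIs of the cell with the same barcode in another library (horizontal axis, log scale), for the 74 barcodes shared with E16.5 HP 1 (circles) and the 70 shared with P0 (triangles). Every circle lies under the dashed line of equal depth, near 2.08% of the partner's UMIs, and every triangle above it.

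Among other adult clusters, Mono6 came next with 309.9 CPM in 176 cells, 10 of which shared a barcode, and 22.5% of the library's UMIs of the 9 genes. C1qa, C1qb and C1qc, at 110.1, 118.6 and 55.57 CPM in Mono6, were each found in only 5.11 to 5.68% of its cells. Cd209a and H2-Aa, of the dendritic cell list, were among its 10 leading genes, and the list summed to 10710 CPM there against 142.0 in the rest of the library. Mono4, the largest adult cluster named for monocytes, had 2.27 CPM in 402 cells. E18.5 UD2ii, at 4042 CPM, had a median of only 519.5 UMIs over 126 cells, and its level was 4697 CPM in the 113 cells with no shared barcode. P0 Neu2 reached 845.8 CPM, but 1 of its 28 cells held all 12 of its Folr2 UMIs.

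The share of cells with C1q in cell types that are not known to make it was taken as the background, and whether it came from free RNA or from cells captured together was not tested. Thinned to 1000 UMIs, C1q was found in 0% of 28 B cells (code Bcell1, median 20066 UMIs, up to 12.3%) and 0.943% of 106 Mast1 cells in E16.5 HP 1, in 0.206 to 1.08% of cells in the 6 T cell codes of E16.5 HP 2 (medians 13504 to 29691 UMIs), and in 0.658% of Bcell1 cells at E18.5 and 0.307% at P0. Mast3 was higher, with C1q in 8.70% of 161 cells at E18.5 (4.84 to 14.2, median 25714 UMIs) and 3.85% of 260 at P0 (1.86 to 6.96). In the adult it was in 0 of 424 Pre/Pro-B1 cells, which allows up to 0.866%. The same share was 85.6% and 91.5% in the E16.5 Mono/Mast clusters (medians 21281 and 26324 UMIs), 58.1% in Mono1ii, 59.7% in Mono1i, 100% in Mono1iv and E18.5 Mono2, 48.0% in P0 Mono1 and 98.2% in P0 Mono2. Timd4 was at a median of 0 CPM over the other codes in every HP library and at most 3.47 CPM (P0 DC3).

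Over 81 units of library and cluster with at least 20 cells, genes with a level most like the mean of the 9 (Pearson r of log2(CPM + 1), 15030 genes, median r −0.05) included Ednrb, an endothelin receptor (r = 0.912), Stab1 (0.911), Dab2 (0.911) and Msr1 (0.880), and then Ltc4s, Ccl24, Trem2, Ctsb and Ccl12 (0.854). The members themselves were at 0.860 (Timd4) to 0.960 (Folr2). Among pairs of members, r was highest for C1qb with C1qc (0.988), which are neighbours on chromosome 4, and lowest for Timd4 with C1qa (0.70). The units share libraries and the 9 genes enter the mean, so these values carry no p.

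Of the antibody tags, CD115, the protein of Csf1r, had counts in E16.5 HP 2 alone among the HP libraries. There its mean was 3.54 counts per cell in the 142 Mono/Mast cells, against 1.49 in HSPC1, 0.863 in TCell1 and 0.409 in Mast1. The median was 1 in the first 3 of these and 0 in Mast1, so a part of the Mono/Mast cells set the mean. CD16/32, the Fc receptors of myeloid and mast cells, had a mean of 28.8 counts in Mono/Mast, 30.2 in Mast1 and 1.64 in TCell1. CD117, the Kit protein used in the sort, had 0 counts in every HP library, so the tags do not show whether cells with the 9 genes carried Kit. In the transcripts, Kit was 191.0 and 120.9 CPM in the E16.5 Mono/Mast clusters and 592.7 and 499.5 in Mast1, but 3.93 in E18.5 Mono1iv (2 UMIs), 5.69 in E18.5 Mono2 and 41.76 in Mono1ii. In P0 Mono1 and Mono2 it was 87.72 and 173.2 CPM, with Cpa3 at 459.2 and 796.3.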

How the data were processed

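The authors deposited raw UMI counts per gene and cell, raw antibody tag counts per cell and a table of library, stage, compartment and cluster code for each cell. Per the labels and the study's methods, libraries were made with the Chromium single cell 3′ v3.1 chemistry and counted with Cell Ranger 3.1.0 on mm10. The authors had removed cells of low depth, of high mitochondrial share and at the upper end of depth, and clustered the rest with Seurat 3.1.5 in R 4.0. No doublet caller was run here. As an alternative, the 10% of cells with the most UMIs in each library were left out. Of the columns in the cell table, 13 were not used.

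UMIs were summed over the cells of a cluster or library and divided by their total to give CPM. Only clusters of at least 20 cells of a library are given. Groups came from the sample labels. Stages were compared on library sums with edgeR 4.0.16 (TMM, filterByExpr, quasi-likelihood test, Benjamini-Hochberg adjustment over 16114 genes, 1 residual degree of freedom) in R 4.3.3. DESeq2 1.42.0 was an alternative. Tested on simulated data at the dispersion of the E16.5 pair (adult against E16.5, 16114 genes), the fit found 43% of genes changed 8-fold and 100% of those changed 64-fold. The common dispersion of the pair was 0.1955, but the 9 genes differed 8.74-fold to 11.4-fold within it. These shares therefore cannot be carried over to the 9 genes. Other steps used Python 3.11.15, numpy 2.4.6, scipy 1.17.1, pandas 2.3.3 and matplotlib 3.10.9. Gene positions and promoters are those of RefSeq.

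The 9 genes and the marker lists were chosen with earlier results of these data known. Genes named in the text are the 9, genes of these lists (values for up to 5 a list, and for the resident macrophage list some more that were chosen after their values were seen), the 10 genes most like the mean of the 9 (1 of them is not reported here), and the 10 leading genes (by fold, at least 50 UMIs) of a cluster described. The alternatives that leave out cells with a shared barcode, with Cpa3 or with a T cell marker were chosen after seeing the data. The scRNA-seq was not repeated, and the p-values measure only the spread of the E16.5 pair, which may be technical.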

Additional observations from a re-analysis of the deposited data

Results flagged for a closer look

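The stromal libraries, which the comparisons of HPs do not use, held 4 of the 9 genes at 10 CPM or more in at least 1 cluster, above the limit that a count of 0 allows. Mrc1 reached 387.1 CPM in adult SECs, a sinusoidal endothelial code, where 74.7% of 194 cells had a UMI. Lyve1 was 36.58 CPM in adult AECs, an arterial endothelial code, with 88 UMIs in 8 of 400 cells, and 35.21 CPM in P0 ECs. Folr2 was 16.17 CPM in adult SECs, with 30 UMIs in 3 cells, and its interval (10.91 to 23.09) overlapped those of the adult codes Osteo (14.62 CPM, 29 cells) and F9 (12.10 CPM, 43 cells). Cbr2 was 28.56 CPM in the adult cartilage code C9, with a UMI in 31.5% of 575 cells, 22.45 CPM in the adult code C11 and 21.98 CPM in C1 at E16.5, and 3 to 5 codes of each stromal library held it at 10 CPM or more. There are no control samples for these levels, and whether they differ between stages was not tested.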

How the results depend on the processing

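Of 153 alternative values of the main results, 90 were counted as unchanged, 62 as moved and 1 as turned in direction. The tolerance for an unchanged value is not stated here, so the 90 need not lie near the value given. Of 189 values for single genes, 143 kept side and direction and 45 passed the threshold where the test given did not. The remaining 1 turned (Cbr2 at E18.5, log2 fold change −0.15 without cells sharing a barcode). No paired analysis was possible because the E18.5, P0 and adult libraries carry no second replicate number. Leaving out either E16.5 library leaves no residual degrees of freedom, so fold changes alone are given: the members' median was −1.22 to 1.84 for E18.5, −3.99 to −0.86 for P0 and −6.53 to −3.24 for adult HPs. Members called at P0 were 5 with DESeq2, 9 with no filter and 4 without shared cells, and in the adult 9 under each. With no filter, 437 of 19555 genes were called lower at P0 and 831 in the adult. No member was called with other size factors, without cells under 1000 UMIs, or without only the shallower of each shared pair. Genes called from E18.5 to the adult, given as 1, 47 and 378, were 361, 561 and 1164 with DESeq2, 485, 713 and 1515 with no filter, 159, 328 and 841 without shared cells, and 35 and 78 at E18.5 and P0 with relative log expression factors, and 2 at E18.5 with library size alone.

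The summed level at E18.5, P0 and in the adult was 1190, 225.3 and 30.57 CPM without the 10% deepest cells, 1527, 459.4 and 164.0 as a mean over cells, 1263, 296.0 and 32.73 without mitochondrial and ribosomal genes in the total, and 182.4, 18.37 and 4.54 without C1q (431.6 in E16.5 HP 1). It was 1110 CPM at E18.5 and 12.55 in the adult without shared cells, 844.0 and 14.75 without the shallower of each shared pair, and 13.79 in the adult without cells under 1000 UMIs. The E16.5 fold was 15.3 without the deepest cells and 15.7 without shared cells. The leading cluster's share was 39.9% at E18.5 and 84.7% at P0 (then Mono1) without C1q, 23.6% and 23.9% at E18.5 without the deepest or the shared cells, and in the adult 32.6% without cells under 1000 UMIs, 36% without the shallower of shared pairs and 25% without shared cells. C1q was found in 26.6, 12.2 and 3.88% of cells from E18.5 to the adult without thinning, in 12.6, 3.81 and 0.725% at 2 UMIs or more, and in 0.554% in the adult without shared cells. Without shared cells the clusters' sums were 11119 CPM (E16.5 HP 1 Mono/Mast), 0 (Mast/Bas), 4697 (UD2ii), 179.7 (Mast4) and 7367 (Mast4ii); without cells holding Cpa3 Mono/Mast had 10672 and 8827 CPM, and without cells holding a T cell marker 7361 and 11243 CPM, which turned the order of the E16.5 pair. The direction at E18.5 turned because each E16.5 library alone sets the reference. For the others the cause was not tested. At E18.5 27.5% and in the adult 17.0% of cells had under 1000 UMIs.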
